A study of Homo sapiens with 9 samples.

Results

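The replication-dependent histone genes described here are the 89 of 60603 genes in the count table whose symbol follows the older naming HIST1 to HIST4 with H1, H2A, H2B, H3 or H4. The rule used names only, so it takes in pseudogenes of the clusters and leaves out the variant histones that are named otherwise. HIST3H3 (H3-4) and HIST2H3PS2 (H3-7), which the list of variant genes also named, match the rule and were counted only here. Of the 89 genes, 30 passed the filter on low counts and were tested, 59 were not tested, and 19 of those 59 had 0 counts in all 9 libraries. The other 40 untested genes never exceeded 20 counts in a library and did not pass the filter, and no gene among them was compared on its own. The tested genes were 2 of 8 linker H1 genes, 7 of 23 H2A genes, 13 of 25 H2B genes, 3 of 17 H3 genes and 5 of 16 H4 genes. The HIST1 genes lie on chromosome 6, the HIST2 and HIST3 genes on chromosome 1 and the HIST4 gene on chromosome 12. By cluster, 19 tested genes carried HIST1 names, 9 carried HIST2 names, 2 carried HIST3 names and 0 carried the HIST4 name.

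Replication-dependent histone genes encode the bulk histones that package newly made DNA. They are short genes without introns, they lie in clusters, and their mRNAs usually end in a conserved stem-loop in place of a poly(A) tail. The stem-loop is bound by SLBP, transcription of the clusters is driven by NPAT at the histone locus body, and the level of these mRNAs normally rises in S phase and falls when DNA synthesis stops. Several of the genes can also give longer, polyadenylated transcripts, which are known from cells that have left the cycle.

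The libraries were made from TC32, a human Ewing sarcoma cell line labelled WT that depends on the EWS::FLI1 fusion protein. All cells were kept in 10% FBS with L-glutamine for 30 h. In siEF the cells received an siRNA that spans the breakpoint of the fusion, in siNEG a non-specific siRNA, and in Media neither siRNA is named by the labels, with 3 libraries labelled as biological replicates in each group. A single cell line was used, all libraries carry the same batch label, and what was shared between cultures of a group is not given in the sources used here, so p-values measure the spread between these libraries. The RNA is labelled as polyA RNA, while the library kit is labelled as a small RNA kit, and a histone mRNA that ends at the stem-loop would be largely lost from tailed RNA.

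The libraries held between 20727706 and 33134581 counts, the shallowest being siEF replicate 2. The 10 most abundant genes took 12.3% to 12.9% of the counts in siEF and 5.78% to 6.62% in the other libraries. NR0B1, a gene that EWS::FLI1 induces, was at 17.6 ± 2.35 CPM (counts scaled to the library size with TMM factors; SD, n = 3) in siEF and 137 ± 4.98 CPM in siNEG. PHLDA1, which the fusion represses, was at 120 ± 7.25 CPM in siEF and 3.19 ± 0.111 CPM in siNEG. FLI1, whose reads include the 3′ part of the fusion mRNA, fell by 0.35 on the log2 scale in siEF against siNEG, short of the fold required for a call. The paper states that FLI1 itself is not expressed in these cells, and that silencing was checked by qPCR with a change of 3 cycles. The fall in FLI1 counts was smaller than that, and the difference was not tested. All 10 Ewing sarcoma markers passed the filter, and 7 of them were called lower in siEF against siNEG (median log2 difference -1.35), where 11.7% of all tested genes were. Their summed level was 800.3 CPM in siEF and 3015 CPM in siNEG. Of the 4 markers of other cell types, PTPRC and MYOD1 did not pass the filter. EPCAM was called higher in siEF than in siNEG (0.406 against 0.040 CPM, with 0.399 CPM in Media), and PECAM1 was called lower (1.60 against 3.69 CPM, with 4.41 CPM in Media). The part of these markers in the histone values was not tested.

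The stem-loop that defines this class of mRNA is shown for the members on which the results turn. Positions and transcripts were taken from GENCODE release 44 on GRCh38, the build named in the labels as hg38, and 87 of the 89 genes were matched. Of these, 71 are annotated as protein-coding, and in 69 of the 71 a stem-loop (a stem of 6 paired bases that starts with GG and a loop of 4 bases that reads T, a pyrimidine, T and any base) was found within 200 bases after the coding sequence. The 69 stem-loops had 8 different sequences, and 41 shared the commonest one. In the lines that follow, capitals mark the stem-loop, written 5′ to 3′ as DNA with 5 flanking bases on each side.
HIST1H2AC (chr6:26124669-26124684, plus strand): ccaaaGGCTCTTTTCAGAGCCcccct
HIST1H2BC (chr6:26123472-26123487, minus strand): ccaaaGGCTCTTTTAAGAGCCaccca
HIST1H2BD (chr6:26158587-26158602, plus strand): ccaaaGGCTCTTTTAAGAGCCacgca
HIST1H3E (chr6:26225596-26225611, plus strand): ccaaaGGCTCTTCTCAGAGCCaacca
HIST2H4A (chr1:149833032-149833047, plus strand): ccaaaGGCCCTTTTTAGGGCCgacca
HIST1H4C (chr6:26104317-26104332, plus strand): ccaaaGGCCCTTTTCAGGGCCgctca
HIST2H2AC (chr1:149887391-149887406, plus strand): ccaaaGGCTCTTTTTAGAGCCaccca

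HIST1H2AC carries the commonest form. HIST1H2BC and HIST1H2BD carry the same stem-loop and moved in opposite directions in siEF. The annotation also lists transcripts that run more than 50 bases past the stem-loop for 18 of the 69 genes. Such transcripts are listed for 13 of the 27 tested genes with a stem-loop and for 5 of the 42 untested ones. They are listed for 6 of the 8 genes that rose in siEF against siNEG (all but HIST1H1C and HIST2H2AA3), for 1 of the 3 that fell (HIST1H2BC), and for 6 of the 16 called neither way. The 6 that rose include the copies HIST2H4A and HIST2H4B, between which reads are divided. Among the tested genes, the median log2 fold change (log2FC) between siEF and siNEG was 0.99 over the 13 genes with an extended transcript (range -1.58 to 5.37) and -0.08 over the 14 without (range -2.06 to 2.89). These are descriptions of an annotation, since gene counts do not show where a transcript ended and the extent of a gene's transcripts also sets how many reads it can collect. The counts were made over an annotation that differs from release 44 in the number of transcripts of some genes. It lists 1 for HIST1H3H, HIST3H2A and HIST3H2BB, where release 44 lists 2, 3 and 3. For HIST1H4H it lists 4, where release 44 lists 3. An extended transcript of release 44 may therefore not have been counted.

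The first question was whether the histone genes as a set changed when EWS::FLI1 was silenced. Summed over all 89 genes, 1533, 1262 and 1781 counts were found in the siEF libraries, 930, 1046 and 860 in siNEG, and 1172, 1007 and 929 in Media. The summed level was 59.4 ± 3.51 CPM in siEF, 29.3 ± 1.63 CPM in siNEG and 34.2 ± 3.52 CPM in Media. All siEF libraries lay above all control libraries. The 11 genes called in siEF against siNEG, described one by one further on, were picked by that contrast, so the next split is a description. Over the 78 genes that were not called in either direction in siEF against siNEG, the summed level was 23.3 ± 1.58 CPM in siEF, 20.7 ± 1.87 CPM in siNEG and 23.5 ± 4.05 CPM in Media. The lowest siEF library (21.74 CPM) lay just above the highest siNEG library (21.73 CPM), and siEF overlapped Media. The 59 untested genes summed to 2.37 ± 0.143 CPM in siEF, 2.92 ± 0.149 CPM in siNEG and 3.54 ± 0.892 CPM in Media, and here the siEF libraries were the lowest. In bulk RNA, a lower level through fewer cells that make these mRNAs and one through less RNA per cell cannot be told apart.

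By family, H2A genes summed to 19.1 ± 0.942 CPM in siEF, 6.38 ± 0.723 CPM in siNEG and 7.74 ± 1.02 CPM in Media. H4 genes summed to 12.1 ± 1.18, 4.72 ± 0.329 and 5.85 ± 0.288 CPM in the same order. H2B genes summed to 21.3 ± 0.888, 14.01 ± 1.49 and 15.2 ± 1.35 CPM. The H2B sum includes the annotated pseudogenes HIST2H2BC (5.10, 3.63 and 3.07 CPM) and HIST2H2BD (2.96, 2.67 and 2.81 CPM). In these 3 families every siEF library was above every control library. H3 genes stood at 3.44 ± 0.459 CPM in siEF, 2.26 ± 0.374 CPM in siNEG and 1.83 ± 0.583 CPM in Media, again without overlap. In each of H2A, H2B, H3 and H4, few genes carried most of the difference. HIST1H2AC held 10.8 CPM of the H2A sum in siEF, 1.03 in siNEG and 1.65 in Media. HIST1H2BD held 6.39 CPM of the H2B sum in siEF, 0.906 in siNEG and 1.04 in Media. HIST2H4A and HIST2H4B together held 9.20 CPM of the H4 sum in siEF, 1.63 in siNEG and 1.997 in Media. HIST1H3E held 1.45 CPM of the H3 sum in siEF, 0.032 in siNEG and 0.035 in Media. These sums therefore do not show a rise across the rest of any of these families. The linker family behaved differently: H1 genes summed to 3.46 ± 0.500 CPM in siEF, 1.89 ± 0.676 CPM in siNEG and 3.60 ± 0.774 CPM in Media, so that siEF was above siNEG and within the range of Media.

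**Figure D1:**
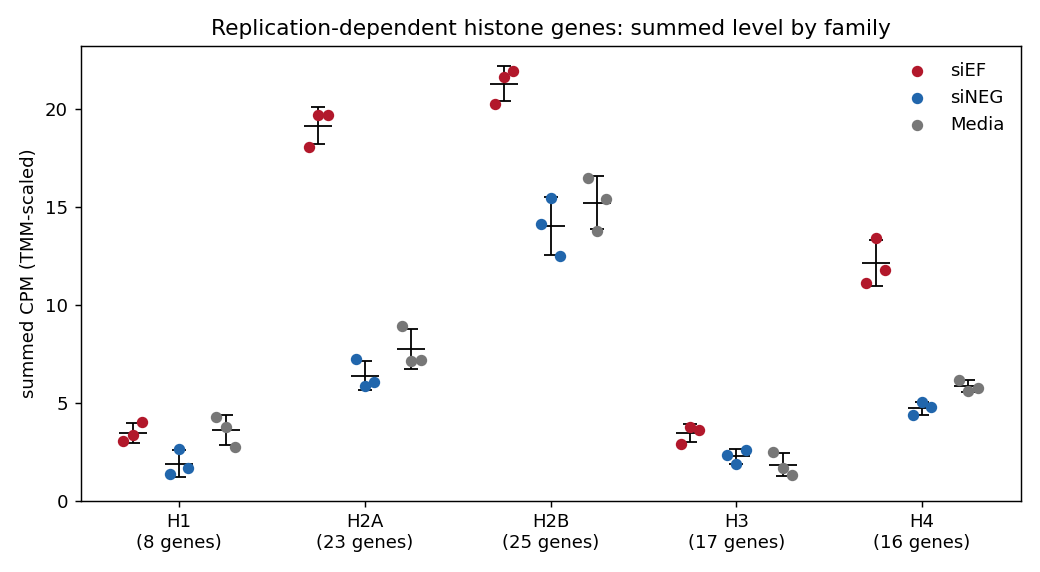
Summed CPM (TMM-scaled, linear axis from 0) of all members of each histone family, with 1 point per library, a bar at the group mean and an error bar of 1 SD (n = 3). The H2A and H4 sums were 19.1 and 12.1 CPM in siEF against 6.38 and 4.72 CPM in siNEG, while the H1 sum of siEF lay among the Media libraries. Of the H4 sums, HIST2H4A and HIST2H4B held 9.20 CPM in siEF and 1.63 CPM in siNEG. Of the H2A sums, HIST1H2AC held 10.8 CPM in siEF and 1.03 CPM in siNEG.

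Gene by gene, 8 of the 30 tested histone genes (26.7%) were called higher in siEF than in siNEG, against 17.1% of all 16093 tested genes. A call required an adjusted p under 0.01 in edgeR's quasi-likelihood test with Benjamini-Hochberg adjustment over all tested genes and a log2FC beyond 1. In the other direction 3 of the 30 (10%) were called lower, against 11.7% of all tested genes. The siEF and siNEG libraries did not overlap for 19 of the 30 genes (63.3%), against 76.9% of all tested genes. The median log2FC was 0.38 over the 30 genes and 0.05 over all tested genes. Both directions occurred in the H2A, H2B and H4 families. The share called lower was near that of all genes, and the excess in the share called higher was not tested. Those called higher include HIST2H4A and HIST2H4B, copies with identical coding sequence between which reads are divided. These copies are not separate signals, although each was counted as a call. When the test itself required a change beyond the threshold (glmTreat of edgeR), 5 genes were called higher, namely HIST1H3E, HIST1H2AC, HIST1H2BD, HIST2H4A and HIST2H4B, and 0 were called lower, with 3 below 0 at an unadjusted p under 0.05.

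**Figure D2:**
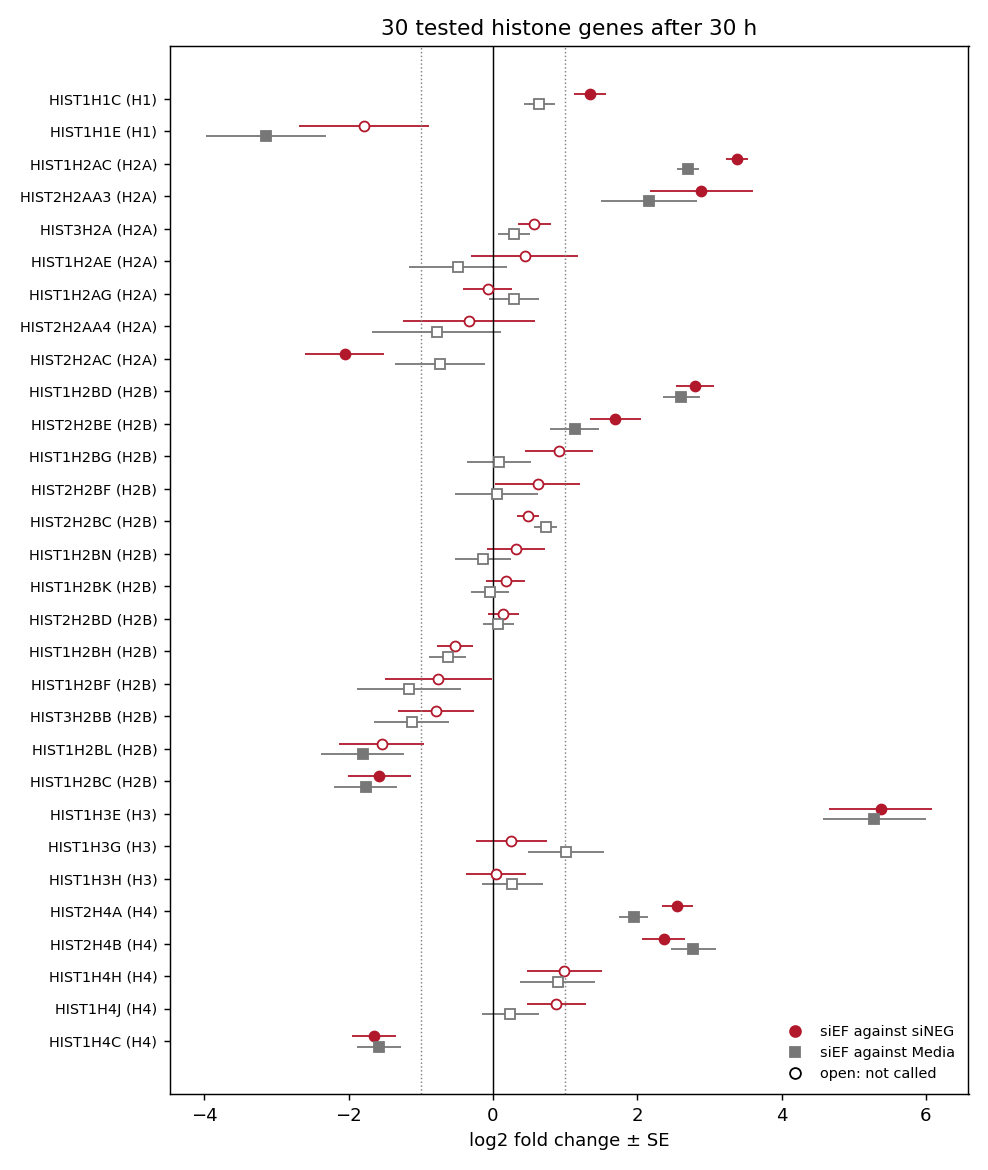
Log2 fold change ± SE of the 30 tested histone genes, grouped by family, for siEF against siNEG (circles) and siEF against Media (squares), with filled symbols for called genes and dotted lines at the cut-off of 1 in both directions. The values run from -2.06 for HIST2H2AC to 5.37 for HIST1H3E in siEF against siNEG, and both directions occur within H2A, H2B and H4.

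Among the H2A genes, which encode a core histone that pairs with H2B, HIST1H2AC (H2AC6, ENSG00000180573.9) changed with the smallest error. It had 305, 204 and 331 counts in the siEF libraries, 28, 40 and 32 in siNEG, and 48, 54 and 48 in Media. Every siEF library was far above every control library, and siNEG was below Media. The level was 10.8 ± 0.707 CPM in siEF and 1.03 ± 0.147 CPM in siNEG (SD, n = 3), a log2FC of 3.38 (SE 0.16, adjusted p = 7.45e-12 in edgeR's quasi-likelihood test). HIST2H2AA3 (H2AC18) had 49, 79 and 77 counts in siEF, 9, 2 and 24 in siNEG, and 0, 30 and 25 in Media. It was called higher, with a log2FC of 2.89 (SE 0.71, adjusted p = 0.0016 by the same test), a call that DESeq2 did not make (adjusted p = 0.049). With 1 library left out, its log2FC ran from 2.36 (without siNEG replicate 2) to 3.98 (without siNEG replicate 3).

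The coding sequence of HIST2H2AA3 is identical to that of its copy HIST2H2AA4 (H2AC19) over 390 bases with 0 differences. RSEM divides reads between such copies, so their separate values are uncertain. HIST2H2AA4 had 31, 0 and 13 counts in siEF, 42, 25 and 0 in siNEG, and 57, 15 and 14 in Media, and in each library where 1 copy was at 0 the other held counts. Their sum was 80, 79 and 90 counts in siEF, 51, 27 and 24 in siNEG, and 57, 45 and 39 in Media. The summed pair was higher in siEF than in siNEG by 1.62 on the log2 scale (SE 0.28, adjusted p = 7.17e-05 in edgeR's quasi-likelihood test), a smaller difference than that of HIST2H2AA3 alone.

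HIST2H2AC (H2AC20) went the other way. It had 4, 2 and 2 counts in siEF, 14, 15 and 14 in siNEG, and 8, 5 and 3 in Media, so that siEF lay below siNEG and overlapped Media. The log2FC between siEF and siNEG was -2.06 (SE 0.55, adjusted p = 0.0029 in edgeR's quasi-likelihood test). The call rested on few counts: the adjusted p was 0.012 without siEF replicate 2, 0.023 without siEF replicate 3, 0.0104 without siNEG replicate 2 and 0.0106 without siNEG replicate 3, and it was 0.021 in DESeq2. HIST3H2A, an H2A gene outside the large cluster, had 73, 85 and 92 counts in siEF and 82, 62 and 69 in siNEG, a log2FC of 0.57 (SE 0.22, adjusted p = 0.030 by the same test) that was not called. HIST1H2AG had 21, 20 and 34 counts in siEF and 40, 21 and 37 in siNEG, and the groups overlapped.

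Of the 13 tested H2B genes, 2 rose, 1 fell and 10 were called neither way, where 17.1% of all tested genes were called higher and 11.7% lower. HIST1H2BD (H2BC5, ENSG00000158373.8) had 175, 126 and 195 counts in siEF, 23, 48 and 18 in siNEG, and 34, 38 and 23 in Media. All siEF libraries were above all controls, which overlapped each other. The log2FC between siEF and siNEG was 2.80 (SE 0.26, adjusted p = 5.02e-08 in edgeR's quasi-likelihood test). HIST2H2BE (H2BC21), whose annotated transcript runs past the stem-loop, had 29, 32 and 45 counts in siEF, 15, 16 and 10 in siNEG, and 25, 17 and 15 in Media. It rose by 1.70 on the log2 scale (SE 0.35, adjusted p = 0.00041 by the same test), again with no siEF library among the controls.

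HIST1H2BC (H2BC4, ENSG00000180596.7) fell. It had 4, 5 and 11 counts in siEF, 23, 22 and 30 in siNEG, and 26, 21 and 33 in Media, and both control groups were above siEF in every library. The log2FC between siEF and siNEG was -1.58 (SE 0.44, adjusted p = 0.0040 in edgeR's quasi-likelihood test). This call was lost without siEF replicate 1 (adjusted p = 0.027), siEF replicate 2 (adjusted p = 0.013) or siNEG replicate 3 (adjusted p = 0.020). HIST1H2BL had 4, 2 and 2 counts in siEF, 12, 9 and 9 in siNEG, and 13, 15 and 6 in Media, and its adjusted p of 0.026 missed the threshold against siNEG.

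The other H2B genes did not reach a call. HIST2H2BC (H2BC20P), annotated as a transcribed pseudogene, had 136, 102 and 157 counts in siEF and 104, 145 and 104 in siNEG, a log2FC of 0.49 (SE 0.16, adjusted p = 0.010 in edgeR's quasi-likelihood test). HIST2H2BD (H2BC19P), also annotated as a pseudogene, had 82, 70 and 73 counts in siEF and 99, 94 and 66 in siNEG, a log2FC of 0.14 (SE 0.21). HIST1H2BK had 46, 31 and 61 counts in siEF and 62, 44 and 45 in siNEG. HIST2H2BF had 13, 17 and 19 counts in siEF and 6, 29 and 6 in siNEG, and HIST3H2BB 5, 2 and 5 against 7, 7 and 12. None of these 5 was called.

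H3 and H4 form the other pair of core histones. HIST1H3E (H3C6, ENSG00000274750.2) had 30, 27 and 57 counts in siEF, 2, 0 and 1 in siNEG, and 0, 0 and 3 in Media. It was close to absent from the control libraries and present in every siEF library. With 114 counts in siEF and 3 in siNEG, the depth-scaled ratio was 47.6 (95% interval 15.9 to 234, covering counting error only), and against the 3 counts of Media it was 44.6 (14.9 to 220). The adjusted p was 3.9e-06 in edgeR's quasi-likelihood test, while the fitted log2FC of 5.37 (SE 0.72) depends on how the fit treats counts near 0 and was 6.19 without siNEG replicate 1. The other tested H3 genes, HIST1H3H and HIST1H3G, were not called. HIST1H3H had 15, 14 and 17 counts in siEF and 19, 13 and 24 in siNEG, and HIST1H3G had 13, 12 and 11 in siEF and 16, 8 and 14 in siNEG, so that the groups overlapped for both.

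HIST2H4A (H4C14) and HIST2H4B (H4C15) encode H4 from coding sequences of 309 bases with 0 differences, and their reads are divided by RSEM as well. HIST2H4A had 176, 131 and 141 counts in siEF, 35, 35 and 26 in siNEG, and 47, 40 and 50 in Media. HIST2H4B had 70, 69 and 119 counts in siEF, 16, 20 and 26 in siNEG, and 14, 20 and 10 in Media. Summed, the pair stood at 9.20 ± 0.517 CPM in siEF, 1.63 ± 0.0298 CPM in siNEG and 1.997 ± 0.0959 CPM in Media, with all siEF libraries above all controls. The log2FC of the sum was 2.49 against siNEG (SE 0.14, adjusted p = 1.14e-10 in edgeR's quasi-likelihood test), between the separate values of 2.56 for HIST2H4A and 2.37 for HIST2H4B.

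HIST1H4C (H4C3, ENSG00000197061.4) encodes an H4 protein from the large cluster on chromosome 6 and fell. It had 14, 11 and 17 counts in siEF, 40, 55 and 70 in siNEG, and 43, 59 and 46 in Media. The siEF libraries were below all control libraries, and the controls overlapped each other. The log2FC was -1.65 (SE 0.30, adjusted p = 0.00013 in edgeR's quasi-likelihood test), and the call held when any 1 library was left out. HIST1H4C lies at chr6:26103933-26104337 on the plus strand, inside the span of HIST1H2BC on the opposite strand, with 0 bases inside exons of that gene. In release 44 an unnamed gene (ENSG00000291336) overlaps several tested genes on their own strand. Of these, HIST1H2AC, HIST1H2BD and HIST1H3E were called higher, and HIST1H1E, HIST1H2AE, HIST1H2BF and HIST1H2BH were not called in siEF against siNEG. How reads of such overlaps were assigned is not given in the sources used here. HIST1H4J had 27, 21 and 37 counts in siEF and 16, 30 and 12 in siNEG, and HIST1H4H had 9, 22 and 10 in siEF and 10, 10 and 7 in siNEG. Neither was called.

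Linker histone H1 binds where DNA enters and leaves the nucleosome. HIST1H1C (H1-2, ENSG00000187837.3) had 76, 68 and 106 counts in siEF, 37, 55 and 32 in siNEG, and 64, 64 and 60 in Media. Every siEF library was above every siNEG library in CPM, and Media lay between them. It rose by 1.34 on the log2 scale in siEF against siNEG (SE 0.22, adjusted p = 4.24e-05 in edgeR's quasi-likelihood test) and was not called against Media (log2FC 0.64, SE 0.21, adjusted p = 0.012). HIST1H1E (H1-4) varied widely within the controls, with 3, 0 and 7 counts in siEF, 2, 27 and 15 in siNEG, and 60, 36 and 10 in Media. It overlapped between siEF and siNEG and of the 3 comparisons it was called in siEF against Media alone (log2FC -3.14, SE 0.83, adjusted p = 0.0027).

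**Figure D3:**
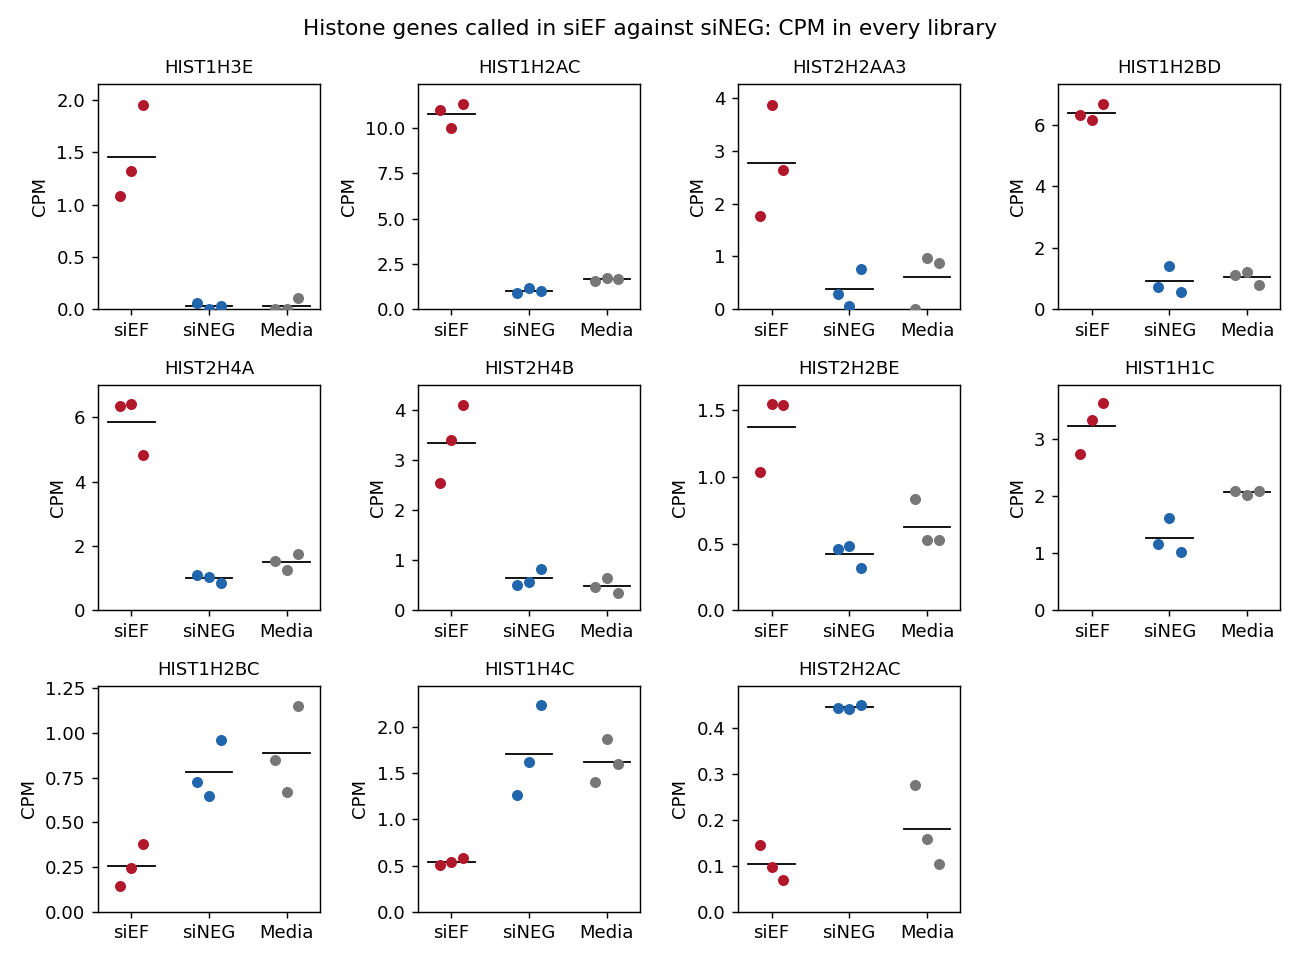
CPM (TMM-scaled, linear axes from 0, a separate scale in each panel) of the 11 histone genes called in siEF against siNEG, with 1 point per library and a line at the group mean (n = 3). In the first 8 panels the siEF points lie above the siNEG points and in the last 3 below them, and in HIST2H2AC the siEF and Media points overlap.

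Media served as a separate control that shares the siEF libraries with the comparison against siNEG. Against Media, 7 of the 30 genes (23.3%) were called higher, against 17.4% of all tested genes, and 4 (13.3%) lower, against 12.5% of all tested genes. The median log2FC was 0.16 over the 30 genes and 0.04 over all tested genes. The sign of the former turned without Media replicate 2 (-0.048) and over the 70 genes kept without the filter (-0.42). The 7 genes called higher were those of the comparison with siNEG except HIST1H1C. The log2FCs against siNEG and against Media were 3.38 and 2.71 for HIST1H2AC, 2.80 and 2.61 for HIST1H2BD, and 2.49 and 2.20 for the summed HIST2H4A and HIST2H4B. HIST1H4C (-1.58, SE 0.31, adjusted p = 0.00021 in edgeR's quasi-likelihood test) and HIST1H2BC (-1.77, SE 0.43, adjusted p = 0.0016) were called lower against Media too, as were HIST1H1E and HIST1H2BL (-1.80, SE 0.57, adjusted p = 0.0098). The count of genes called lower against Media was 1 without siEF replicate 1, and 2 without siEF replicate 2 or without Media replicate 1.

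Between the controls, 0 of the 30 genes were called in siNEG against Media by edgeR's quasi-likelihood test, where 0.429% of all tested genes were called in either direction. At an unadjusted p under 0.05 there were 4 of 30 genes, and DESeq2 called 0 of the 70 histone genes that had any count, with 3 at an unadjusted p under 0.05 and 58 left without an adjusted p. The log2FC was above 0 for 7 of the 30 genes, and the median was -0.27, while that of all tested genes was -0.0012. Every siNEG library of HIST1H2AC lay below every Media library, with a log2FC of -0.68 (SE 0.18, adjusted p = 0.017) that was not called. The same held for HIST1H1C, with -0.70 (SE 0.23, adjusted p = 0.043). For HIST2H2AC every siNEG library lay above every Media library (14, 15 and 14 against 8, 5 and 3 counts), with an adjusted p of 0.071 by the same test and no call.

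Many H2A and H2B genes lie head to head, with 2 starts that face away from each other across a short shared region. Within a limit of 500 bp, 17 such pairs were found among the histone genes, and both genes were tested in 6 of them. In 2 of the 6 pairs the partners were called in opposite directions. HIST1H2AC rose (log2FC 3.38) and HIST1H2BC, 245 bases away, fell (-1.58). HIST2H2BE rose (1.70) and HIST2H2AC, 235 bases away, fell (-2.06). Against Media, HIST2H2AC had -0.74 (SE 0.62, adjusted p = 0.29 in edgeR's quasi-likelihood test) and was not called. In the pair of HIST2H2AA3 and the pseudogene HIST2H2BD, the values were 2.89 and 0.14. In the other 3 pairs neither gene was called, with 0.91 for HIST1H2BG and 0.44 for HIST1H2AE, 0.49 for HIST2H2BC and -0.33 for HIST2H2AA4, and 0.57 for HIST3H2A and -0.79 for HIST3H2BB. The difference between partners was not tested.

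The regions between the starts of the 2 opposed pairs are printed because in each pair 1 stretch of DNA lies before both genes. They were read from hg38 on the plus strand, and capitals mark the TATA box (TATAAA), the CCAAT box (CCAAT) and the octamer (ATTTGCAT) on either strand.
HIST1H2BC and HIST1H2AC (chr6:26123927-26124171): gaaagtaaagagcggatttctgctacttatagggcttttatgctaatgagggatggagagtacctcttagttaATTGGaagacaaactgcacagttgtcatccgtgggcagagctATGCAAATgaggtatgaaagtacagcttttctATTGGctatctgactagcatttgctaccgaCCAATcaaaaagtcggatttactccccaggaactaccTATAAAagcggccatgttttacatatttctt
HIST2H2BE and HIST2H2AC (chr1:149886683-149886917): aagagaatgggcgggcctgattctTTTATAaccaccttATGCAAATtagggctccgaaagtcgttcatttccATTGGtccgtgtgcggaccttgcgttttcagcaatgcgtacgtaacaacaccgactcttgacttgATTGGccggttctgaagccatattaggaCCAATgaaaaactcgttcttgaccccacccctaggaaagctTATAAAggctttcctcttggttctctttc

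The region of HIST1H2BC and HIST1H2AC held 1 TATA box, 3 CCAAT boxes and 1 octamer, and that of HIST2H2BE and HIST2H2AC held 2 TATA boxes, 3 CCAAT boxes and 1 octamer. Over the RefSeq promoters (250 bases before to 50 after the start, GRCh38.p14), which matched 66 of the 89 genes, a TATA box was found in 66.7% of the histone genes and 11.5% of all 35116 promoters. A CCAAT box was found in 84.8% of them and in 34.6% of all promoters. The octamer, the site of POU2F1, was found in 25 of 34 H2A and H2B promoters (73.5%), in 1 of 32 promoters of the other families, and in 1.77% of all promoters. GGAA, the core letters of an ETS site, occurred in 93.9% of the histone promoters and 95.5% of all promoters, and GGAAGGAA, 2 such cores in a row, in 1 of the 66 and in 3.67% of all promoters. The octamer was found in 2 of the 8 promoters of genes that rose and in both of the matched promoters of genes that fell. Those that rose (HIST2H2BE and HIST1H2AC) are the head-to-head partners of those that fell (HIST2H2AC and HIST1H2BC). Each pair shares 1 octamer in the region printed above, so the same octamers were counted in both directions. No promoter was matched for HIST1H4C. All these counts are matches of letters and not measured binding sites.

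Genes that act with the histone genes were read from lists of known roles. In the list for S phase, with DNA replication and nucleotide supply genes, 22 of 25 were called lower in siEF against siNEG and 0 higher, where 11.7% of all tested genes were called lower, and the median log2FC was -1.84, beside 0.38 for the histone genes. RRM2, a subunit of ribonucleotide reductase, was at 155 ± 3.65 CPM in siEF and 652 ± 8.48 CPM in siNEG, and MCM7, a subunit of the replicative helicase, at 233 ± 10.5 and 557 ± 9.49 CPM. Of 14 genes of G2 and mitosis, 9 were called lower and 0 higher, with a median of -1.11. The fall in these lists moved with the rise of some histone genes and the fall of others, and its part in either was not tested.

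In the list for histone mRNA 3′ end processing, 7 of 15 genes were called lower, where 11.7% of all tested genes were, and 0 higher, with a median of -0.89. SLBP, the protein that binds the stem-loop, was at 39.4 ± 2.22 CPM in siEF, 113 ± 1.48 CPM in siNEG and 114 ± 2.20 CPM in Media. Its log2FC against siNEG was -1.52 (SE 0.05, adjusted p = 1.21e-13 in edgeR's quasi-likelihood test). SNRPB, a core protein of the U7 particle and of the spliceosome, was called lower (-1.02), and SNRPD3 (-0.47) fell short of the fold required. LSM11, a protein of the U7 particle named here after its value was seen, stood at 19.8 ± 0.988 CPM in siEF and 17.1 ± 0.460 CPM in siNEG and was not called.

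Of 13 genes for transcription at the histone locus, 5 were called lower and 0 higher, with a median of -0.58. NPAT and CASP8AP2 are in this list and in that for 3′ end processing, so the counts of these lists overlap. NPAT was at 33.04 ± 1.93 CPM in siEF and 49.3 ± 1.27 CPM in siNEG, a log2FC of -0.58 (SE 0.07) that fell short of a call. CDK2, whose kinase activity with cyclin E is needed for NPAT function, was called lower (-1.05), while GON4L stood at 78.5 ± 2.28 and 74.3 ± 2.17 CPM. The list for histone mRNA decay held 1 gene called lower of 9, near the 11.7% of all tested genes, and 0 called higher, with a median of 0.07. In it UPF1, a helicase of mRNA decay, was at 118 ± 5.83 CPM in siEF and 113 ± 8.30 CPM in siNEG, and EXOSC10, an exosome nuclease, at 140 ± 6.77 and 117 ± 2.80 CPM. Among 21 histone chaperones, 9 were called lower and 0 higher, with a median of -0.77. SSRP1, a subunit of FACT, had -0.86 and NAP1L1, a chaperone of H2A and H2B, had 0.60, neither of which was a call.

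Many variant histones are made throughout the cycle from ordinary polyadenylated mRNA, which does not hold for every gene of the list, such as H2AX and CENPA. Of 19 variant genes in the table, 11 were tested, 4 were called lower in siEF against siNEG and 1 higher, and the median log2FC was -0.47. Of all tested genes, 11.7% were called lower and 17.1% higher. H2AZ1, which replaces H2A at promoters, was at 172 ± 11.6 CPM in siEF and 480 ± 2.23 CPM in siNEG (log2FC -1.48, SE 0.05, adjusted p = 1.11e-13 in edgeR's quasi-likelihood test). H2AX, which is phosphorylated at DNA breaks, was at 57.2 ± 5.90 and 140 ± 3.84 CPM (-1.30). The replacement H3 genes H3-3A and H3-3B had log2FCs of 0.26 and -0.25, neither of which was a call. The other genes called lower were CENPA and MACROH2A2, and the gene called higher was H2AJ, named here after their values were seen. A list of 7 other histone names gave 3 genes in the table that are not among the 89, and 0 of those 3 were tested. Listed names of genes already among the 89 were not counted again.

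**Figure D4:**
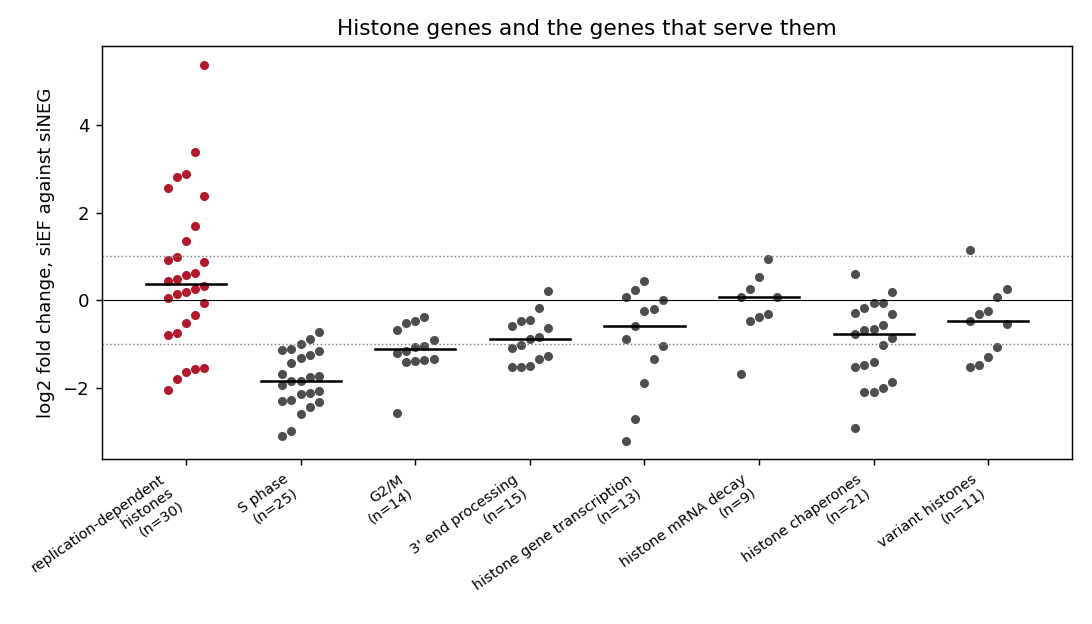
Log2 fold change of siEF against siNEG for each tested gene (1 point per gene) of the replication-dependent histones and of 7 lists of related genes, with a line at the median and dotted lines at the cut-off of 1 in both directions. The medians are 0.38 for the histone genes and -1.84 for the S-phase genes, and the highest histone gene, at 5.37, lies above every gene of the 7 lists.

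Because tailed RNA is labelled as the starting material, the level of RNAs that lack a poly(A) tail was read in the same libraries. Of 25 listed RNAs, 24 were in the table and 7 were tested, of which 1 (RPPH1) was called higher and 0 lower in siEF against siNEG. Their summed level ranged from 51.9 to 93.1 CPM in the siEF libraries, from 29.9 to 200.6 CPM in siNEG and from 75.9 to 286.3 CPM in Media, and most of it came from RN7SL1 and RN7SL2, the RNAs of the signal recognition particle. RN7SL2 was at 29.4 ± 16.3 CPM in siEF and 52.1 ± 50.1 CPM in siNEG, and RN7SL1 at 24.7 ± 14.1 and 43.4 ± 39.6 CPM. The median log2FC of the 7 tested RNAs was 1.03 for siEF against siNEG, 0.86 for siEF against Media and -0.53 for siNEG against Media. The part of tail selection in the histone values was not tested.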

How the data were processed

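Bulk RNA-seq of 9 TC32 libraries was used. According to the methods, the authors mapped reads to hg38 with STAR and quantified genes with RSEM; the GEO labels name cutadapt 2.10, FastQC and DESeq2 1.32.0. The authors deposited RSEM's expected counts, without scaling for depth. The annotation release and the strand setting are not given in the sources used here, so reads of overlapping genes may be shared, and no molecular identifiers are described.

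Expected counts were rounded, filterByExpr kept 16093 genes, and after TMM scaling they were tested with edgeR 4.0.16 (quasi-likelihood test, Benjamini-Hochberg adjustment) in R 4.3.3, with all 9 libraries in 1 fit. Calls needed an adjusted p under 0.01 with a log2 change beyond 1. CPM values are not corrected for gene length. The procedure was tested on simulated data, where 96 of 98 genes changed by 2 on the log2 scale and 100 of 100 changed by 3 were called. The simulation gave every gene the same spread and changed only genes above a minimum mean count. It therefore does not show how the procedure performs for noisy genes or genes with few counts. All pairs of replicates differed by more than sampling noise (chi-square per degree of freedom 3.57 to 23.2).

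Histone genes and related lists were chosen with earlier results of these data known. Named were the 4 most abundant tested genes of each family, the 3 most raised and 3 most lowered called genes, tested genes outside HIST1, and the 2 most abundant genes of each list with a few fixed ones; other genes named were chosen after their values were seen. Alternatives used DESeq2 1.42.0, other scalings, filters and thresholds, and each library left out. Sequence features were read with Python 3 scripts from GENCODE release 44, hg38 and RefSeq promoters.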

Additional observations from a re-analysis of the deposited data

How the results depend on the processing

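The 8 genes called higher in siEF against siNEG were a count of 8 whichever library was left out, and 5 when the test required a fold change beyond the threshold itself (glmTreat). The 3 called lower were 0 under glmTreat, 1 when at least 10 counts were required in every library, and 1 to 3 with 1 library left out. Against Media, the 4 called lower were 0 under glmTreat, 1 with at least 10 counts in every library, and 1 to 3 with 1 library left out; the causes were not tested, beyond the smaller number of genes and libraries in those fits. The median log2FC between siEF and siNEG was 0.60 with at least 10 counts in every library, 0 without the filter over 70 genes, and 0.21 to 0.41 with 1 library left out. Against Media it was 0.33 with the strict filter and -0.42 without the filter, and ran from -0.048 to 0.23 with 1 library left out; for siNEG against Media it was -0.20 with the strict filter and -0.40 to -0.15 with 1 library left out. With the replicate block the median of siEF against siNEG was 0.39, 8 genes were called higher and 3 lower, and no call count moved by over 1.5 times; the numbers did not pair the libraries, whose same-numbered deviations correlated between -0.088 and 0.048. For 23 named genes, 402 values were computed under alternatives: 374 kept their direction and side of the threshold, 16 lost and 1 gained a call, and 11 changed sign. All sign changes were in uncalled genes. HIST1H2AG was 0.011 with upper quartile scaling and HIST1H3H -0.018 with total counts. With 1 library left out, HIST1H2AG ran from -0.35 to 0.080, HIST1H3G from -0.024 to 0.44, HIST1H3H from -0.20 to 0.28, HIST2H2AA4 from -1.45 to 0.50 and HIST2H2BD from -0.0090 to 0.25. HIST2H2AA3 was not called by DESeq2 (adjusted p = 0.049). Depth limits the 59 of 89 genes that did not pass the filter and tested genes with few counts, such as HIST2H2AC.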
